A study of Homo sapiens with 2 samples.

Results

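The genes described here are 37 human genes of the ATR checkpoint, the Fanconi anaemia pathway and homologous recombination. They were listed by symbol from their known roles, with earlier results of these data known. All 37 were found by gene identifier among the 19052 genes that appear in the tables of 2 RNA libraries. Both libraries came from TSU-Pr1 cells, called K12 in the labels, a human bladder carcinoma line with stable KLF5 expression, per the series title. The cells were grown in medium with 8% serum. The siCINP library was made from cells given siRNA against CINP, and the siCtrl library from cells given a control siRNA, in both cases 48 h before RNA was taken. There was 1 library in each group, so the spread between replicates is unknown and no test of the conditions could be made. Whether the KLF5 line was a single clone is not given in the sources used here.

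ATR is a kinase that is recruited by its partner ATRIP to single-stranded DNA at stalled replication forks. It is switched on by TOPBP1 or ETAA1 and signals through the kinase CHK1 (gene CHEK1) to hold the cell cycle and protect forks. The Fanconi proteins mark DNA crosslinks by ubiquitinating FANCI and FANCD2. The BRCA proteins and further recombination factors then repair the resulting breaks by recombination with a sister chromatid. The protein encoded by CINP is known to bind CDK2 and also ATRIP.

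CINP itself had 53 reads in siCINP and 203 in siCtrl, with deposited FPKM values (reads scaled to gene length and library total) of 5.27 and 20.6. The log2 ratio of siCINP over siCtrl was -2.01, with a 95% counting interval of -2.47 to -1.56. The library totals were 10314195 reads in siCINP and 10365289 in siCtrl. KRT8 and KRT18, keratins of simple epithelium, had 30507 and 29477 reads in siCINP and 29363 and 27036 in siCtrl. Of 14 urothelial and epithelial markers, 6 in siCINP and 5 in siCtrl had 20 or more reads. Of these 6, 4 were at least 1.5-fold higher in siCINP with an interval above 0. Those were KRT5 (75 reads in siCINP and 4 in siCtrl), KRT7 (297 and 154), KRT19 (44 and 20) and CDH1 (75 and 46), all with fractional counts. KRT5 reached 20 reads only in siCINP. Of all genes with 20 or more reads in 1 library, 5.06% were higher by the same rule. Among the uroplakins, UPK1A had 5 reads in siCINP and 10 in siCtrl, UPK1B 18 and 19, and UPK2 and UPK3A at most 1. Of the remaining markers, GATA3 had 11 reads in siCINP and 17 in siCtrl, EPCAM 15 and 4, TP63 16 and 8, and KRT20 0 in both. Of the 6 prostate markers 5 had no read in either library. The 6 leukocyte markers summed to 114 reads in siCINP and 108 in siCtrl, the 6 fibroblast markers to 187 and 161, and the 4 endothelial markers to 82 and 48. The part of these markers in the results below was not tested.

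The 37 genes together took 24791 reads in siCINP (0.240% of the library) and 23810 in siCtrl (0.230%). Each had at least 69 reads in siCINP and 72 in siCtrl, so all passed the minimum of 20 reads in 1 library that defined the 13076 compared genes. Their median FPKM was 14.9 in siCINP and 14.7 in siCtrl, where all compared genes had medians of 10.6 and 10.3. The highest level in siCINP belonged to RAD51C (41.3 FPKM, against 30.3 in siCtrl), and the highest in siCtrl to FANCI (32.8 FPKM in siCINP and 36.1 in siCtrl). FANCB was the lowest in both, with 2.22 FPKM in siCINP and 2.34 in siCtrl.

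**Figure D1:**
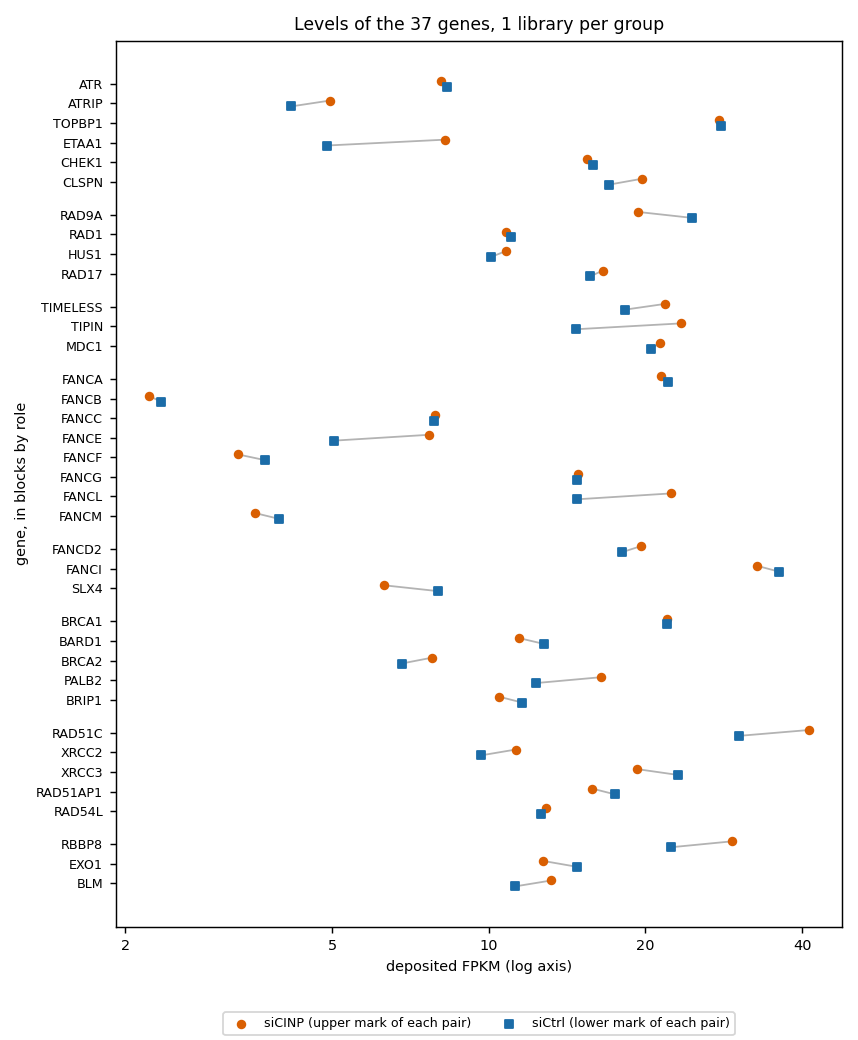
Deposited FPKM of each of the 37 genes on a log axis, in blocks by role, with siCINP as circles above siCtrl as squares. Most pairs lie close together, and the widest gaps are those of ETAA1 (8.25 in siCINP and 4.89 in siCtrl), TIPIN, FANCE and FANCL.

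In the comparison of siCINP with siCtrl most of these genes differed little, with about as many higher as lower. The median log2 ratio was -0.01 over the 37 genes, as it was over all compared genes. Of the 37, 28 lay within 1.25-fold of equality (75.7%), compared with 68.6% of all compared genes. ETAA1 and TIPIN were at least 1.5-fold higher in siCINP with an interval above 0, and 0 genes were at least 1.5-fold lower with an interval below 0. Over all compared genes those shares were 5.06% higher and 4.88% lower, so 2 of 37 (5.41%) is near the background. With no minimum of fold, the interval lay above 0 in 9 genes and below 0 in 9, which is 24.3% in each direction. The shares of all compared genes were 18.6% above 0 and 23.1% below. These genes had a median of 520 reads in siCINP and 528 in siCtrl, where all compared genes had 333 and 320, and 28 of the 37 had a narrower interval than the median compared gene.

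Scaling touched these counts. The main scaling was TMM of edgeR. Scaled to total reads, which moved the median of all compared genes to 0.06, the 37 genes had 11 intervals above 0 (29.7%) and 7 below (18.9%), where all compared genes had 26.6% and 16.7%, and FANCE and FANCL also passed 1.5-fold. Over all compared genes that scaling gave 858 higher and 484 lower genes at 1.5-fold, against 662 and 638 with TMM. All 9 genes with an interval above 0 and 7 of the 9 below kept their side with each of the 4 scalings used. The exceptions were CHEK1 and RAD51AP1, whose intervals held 0 with the other 3 scalings, while those of BRCA2 and BLM lay above 0 there. In RNA from whole cultures, fewer cells of a type and less RNA per cell cannot be told apart.

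**Figure D2:**
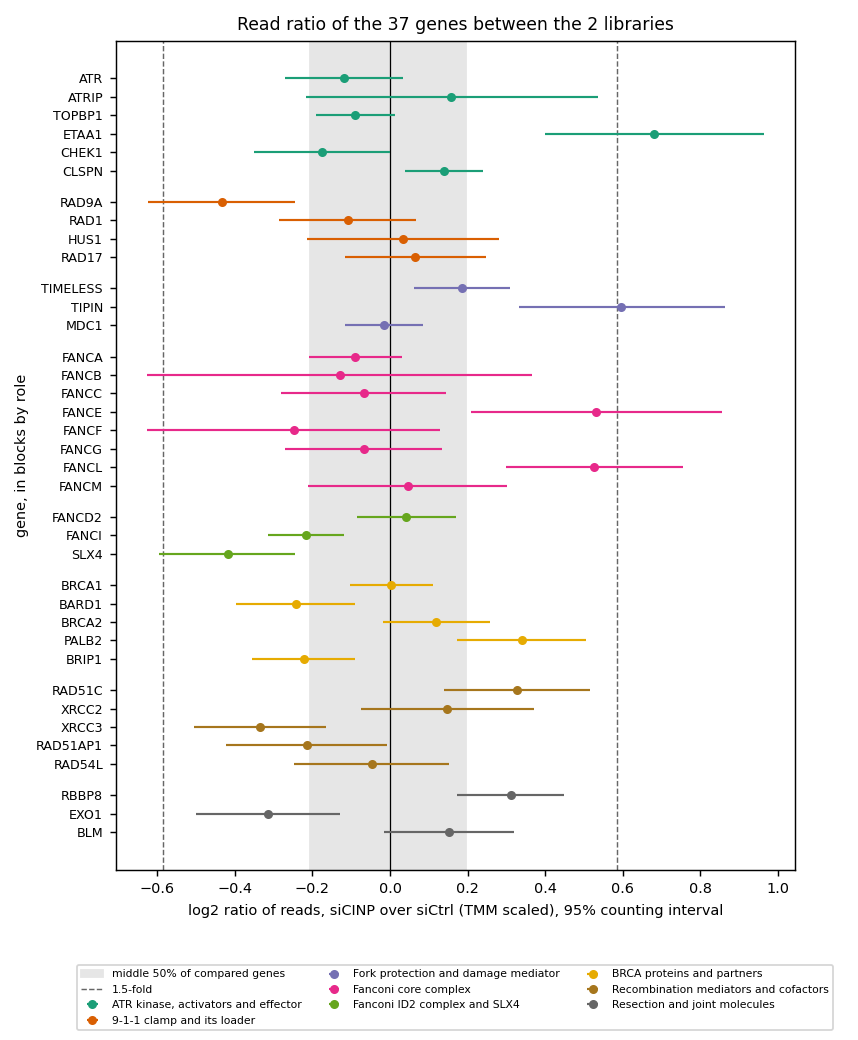
Log2 ratio of reads, siCINP over siCtrl, for the 37 genes in blocks by role, with 95% counting intervals; the shaded band holds the middle 50% of all compared genes and dashed lines mark 1.5-fold. ETAA1 at 0.68 and TIPIN at 0.60 lie past the right dashed line, and RAD9A at -0.43 is the lowest point.

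Promoters were searched for words of the E2F motif, since E2F factors drive many S-phase genes. RefSeq promoters (GRCh38.p14, 250 bases before to 50 after the start) were matched for 35 of the 37 genes, all but FANCI and HUS1. The words searched on both strands were TTTGGCGC, TTTCGCGC, TTTCCCGC and TTTGCCGC, which do not contain each other. They were found in 7 of the 35 promoters and in 573 of 10382 promoters of compared genes (5.52%). The 7 genes were CLSPN, EXO1, FANCA, FANCC, FANCD2, TOPBP1 and XRCC2, and in 5 of them the word began within 30 bases of the annotated start. These 5 windows of 30 bases are shown because the word begins within 30 bases of the start, with the word or its reverse complement in capitals. They lie at chr1:35769965-35769994 (minus strand, CLSPN), chr1:241848197-241848226 (plus, EXO1), chr3:10026424-10026453 (plus, FANCD2), chr3:133661930-133661959 (minus, TOPBP1) and chr7:152676102-152676131 (minus, XRCC2).
CLSPN: actctggctggGCGGGAAAgcaagaacagc
EXO1: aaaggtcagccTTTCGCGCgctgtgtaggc
FANCD2: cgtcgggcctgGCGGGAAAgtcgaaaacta
TOPBP1: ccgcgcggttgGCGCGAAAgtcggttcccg
XRCC2: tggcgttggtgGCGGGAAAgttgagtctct
The 7 genes with a word had a median log2 ratio of -0.07 and the other 28 one of -0.01, where all compared genes had -0.03 with a word and -0.01 without. The 7 ranged from EXO1 at -0.31 to XRCC2 at 0.15, so genes with the word lay on both sides of 0. The words TTTGAA and TTCGAA of the cell cycle homology region, an element of late cell cycle genes, were in 3 of the 35 promoters (8.57%) and in 11.04% of compared promoters. CCAAT was in 17 (48.6%) and in 37.04%. A match of letters is a description and not a binding site.

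Among the kinase genes, ATR had 696 reads in siCINP and 721 in siCtrl, with 8.08 and 8.32 FPKM. Its partner ATRIP had 131 reads in siCINP and 112 in siCtrl, with 4.95 and 4.17 FPKM. Neither differed beyond counting error: the log2 ratios were -0.12 (-0.27 to 0.03) for ATR and 0.16 (-0.22 to 0.53) for ATRIP. At this depth the interval of ATRIP allowed a log2 difference of up to 0.53. The counts of ATRIP were fractional, which was taken as a sign of reads shared with other genes. So were those of RAD1, HUS1, FANCC, FANCF, FANCD2, XRCC2 and BLM, beside the genes called fractional below.

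The 2 activators of ATR differed in their ratios. ETAA1, which binds the single-strand binding protein RPA and activates ATR, had 282 reads in siCINP and 168 in siCtrl, with 8.25 and 4.89 FPKM. Its log2 ratio was 0.68 (0.40 to 0.96), the largest of the 37. TOPBP1, which activates ATR from the 9-1-1 clamp, had 1549 reads in siCINP and 1572 in siCtrl, a log2 ratio of -0.09 (-0.19 to 0.01). ETAA1 thus stood at 0.298 of the FPKM of TOPBP1 in siCINP and at 0.175 in siCtrl. The read ratio of the pair differed between the libraries by 0.77 on the log2 scale (0.47 to 1.07), a value that no scaling touches.

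CHEK1, the effector kinase, had 516 reads in siCINP and 556 in siCtrl. Its log2 ratio was -0.18, with an interval whose upper end, at -0.0004, barely cleared 0. CLSPN encodes claspin, the mediator that brings CHK1 to ATR. It had 1744 reads in siCINP and 1510 in siCtrl, a log2 ratio of 0.14 (0.04 to 0.24). Both had fractional counts, and the interval of CHEK1 held 0 with the other 3 scalings.

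The 9-1-1 clamp is a ring of RAD9A, RAD1 and HUS1 that RAD17 loads at single-strand junctions. RAD9A had 410 reads in siCINP and 528 in siCtrl, with 19.4 and 24.5 FPKM. This was the lowest log2 ratio of the 37, at -0.43 (-0.62 to -0.24). RAD1 (522 reads in siCINP and 537 in siCtrl), HUS1 (282 and 263) and RAD17 (520 and 474) had intervals that held 0, with log2 ratios of -0.11, 0.03 and 0.07. RAD9A stood at 1.80 times the FPKM of RAD1 in siCINP and 2.23 times in siCtrl, while HUS1 stood at 1.002 and 0.917 times. The read ratio of RAD9A to RAD1 was lower in siCINP by a log2 value of -0.32 (-0.58 to -0.06), so within the ring RAD9A differed from RAD1 beyond counting error.

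TIMELESS and TIPIN encode the dimer that travels with the fork and helps claspin to act. TIPIN had 309 reads in siCINP and 195 in siCtrl, with 23.4 and 14.7 FPKM, and a log2 ratio of 0.60 (0.33 to 0.86). TIMELESS had 1172 reads in siCINP and 983 in siCtrl, a log2 ratio of 0.19 (0.06 to 0.31), with fractional counts. Both were higher in siCINP, TIPIN by more. The FPKM of TIPIN was 1.07 times that of TIMELESS in siCINP and 0.806 times in siCtrl, and the read ratio differed by 0.41 (0.12 to 0.70). MDC1, which binds phosphorylated H2AX at breaks, had 1646 reads in siCINP and 1586 in siCtrl, a log2 ratio of -0.01 (-0.12 to 0.09).

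Of the 8 genes of the Fanconi core complex, which ubiquitinates FANCD2 and FANCI, 2 were higher beyond counting error and 0 lower, where 18.6% of all compared genes were above 0 and 23.1% below. FANCL, the ubiquitin ligase subunit, had 400 reads in siCINP and 265 in siCtrl, with 22.4 and 14.8 FPKM and a log2 ratio of 0.53 (0.30 to 0.76). FANCE, the subunit that contacts FANCD2, had 203 reads in siCINP and 134 in siCtrl, with 7.66 and 5.03 FPKM and a log2 ratio of 0.53 (0.21 to 0.86). The other 6 lay between FANCF at -0.25 and FANCM at 0.05. FANCG had 407 reads in both libraries and FANCC 365 in both. FANCB, at 69 reads in siCINP and 72 in siCtrl, had an interval of -0.63 to 0.37, and FANCF, at 113 and 128, one of -0.63 to 0.13. These were the widest intervals of the complex.

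Neither substrate of the complex had an interval above 0. FANCI had 1618 reads in siCINP and 1793 in siCtrl, a log2 ratio of -0.22 (-0.31 to -0.12). FANCD2 had 1059 reads in siCINP and 981 in siCtrl, a log2 ratio of 0.04 (-0.08 to 0.17). Per length, FANCI stood at 1.67 times FANCD2 in siCINP and 2.00 times in siCtrl, and the read ratio differed by -0.26 (-0.42 to -0.10). SLX4, a scaffold for nucleases that cut crosslinks and recombination intermediates, had 480 reads in siCINP and 612 in siCtrl. Its log2 ratio of -0.42 (-0.59 to -0.24) was next to that of RAD9A at the low end, with fractional counts.

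Genes of the BRCA proteins and their partners differed in both directions. BRCA1 had 1464 reads in siCINP and 1393 in siCtrl, a log2 ratio of 0.00 (-0.10 to 0.11). BARD1, its partner in a ubiquitin ligase, had 650 and 734 reads, a log2 ratio of -0.24 (-0.40 to -0.09). BRIP1, a helicase that binds BRCA1, had 892 reads in siCINP and 993 in siCtrl, a log2 ratio of -0.22 (-0.35 to -0.09). Both BARD1 and BRIP1 were lower beyond counting error, while the interval of BRCA1 held 0; BRCA1, BRIP1 and BRCA2 had fractional counts. PALB2, which bridges BRCA1 and BRCA2, had 695 reads in siCINP and 524 in siCtrl, a log2 ratio of 0.34 (0.17 to 0.51). BRCA2, a core factor of recombination, had 926 reads in siCINP and 813 in siCtrl, a log2 ratio of 0.12 (-0.02 to 0.26). The read ratio of BRCA1 to BARD1 differed by 0.25 (0.06 to 0.44), and that of PALB2 to BRCA2 by 0.22 (0.00 to 0.44).

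RAD51C and XRCC3 form a complex that acts in recombination, and they went opposite ways. RAD51C had 542 reads in siCINP and 412 in siCtrl, a log2 ratio of 0.33 (0.14 to 0.52). XRCC3 had 521 reads in siCINP and 627 in siCtrl, a log2 ratio of -0.34 (-0.51 to -0.17). Per length, RAD51C stood at 2.15 times XRCC3 in siCINP and 1.31 times in siCtrl, and the read ratio differed by 0.66 (0.41 to 0.92). RAD51AP1, which aids strand invasion, had 365 reads in siCINP and 404 in siCtrl, a log2 ratio of -0.21 (-0.42 to -0.01). XRCC2, a recombination factor of another complex, and RAD54L, a DNA translocase, had intervals that held 0, with log2 ratios of 0.15 and -0.05.

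RBBP8 and EXO1, which act in the trimming of broken ends, also differed in opposite directions. Of all compared genes, 41.7% had an interval excluding 0 on either side. RBBP8 encodes CtIP, which starts resection, and had 991 reads in siCINP and 762 in siCtrl, a log2 ratio of 0.31 (0.17 to 0.45). EXO1, which extends resection, had 441 reads in siCINP and 523 in siCtrl, a log2 ratio of -0.31 (-0.50 to -0.13). BLM, a helicase that unwinds recombination intermediates, had 630 reads in siCINP and 541 in siCtrl, a log2 ratio of 0.15 (-0.02 to 0.32).

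**Figure D3:**
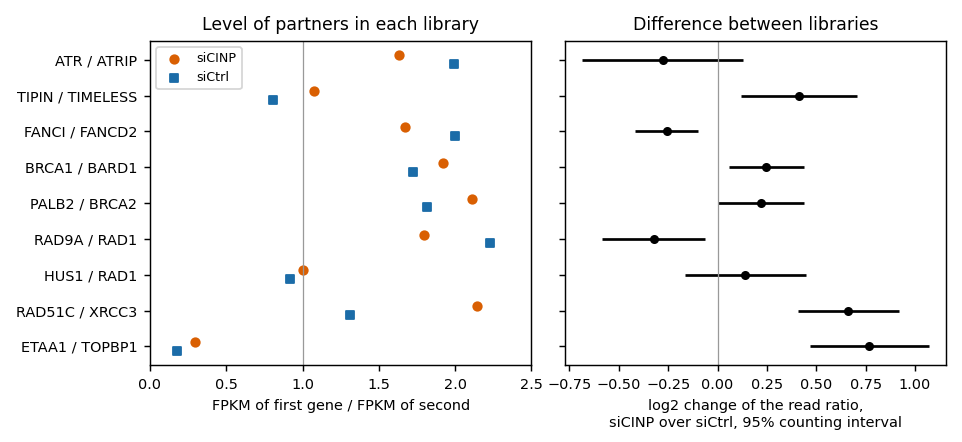
Left, FPKM of the first gene of each pair over that of the second, in siCINP (circles) and siCtrl (squares). Right, log2 difference of the pair's read ratio between siCINP and siCtrl with its 95% counting interval: ETAA1 over TOPBP1 (0.77) and RAD51C over XRCC3 (0.66) are farthest from 0, and the intervals of ATR over ATRIP and HUS1 over RAD1 hold 0.

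The tables also give a length for each gene in each library. It was the same in both for all 5725 compared genes with 1 transcript identifier, and it could differ where a gene had several. How it was set is not given in the sources used here. Of the 24 genes described here with several transcripts, 2 differed in length by over 5% (8.33%), compared with 7.34% of 7332 compared genes with several. FANCM, a translocase that anchors the core complex at DNA, was given 7137 bases in siCINP and 5906 in siCtrl, 20.8% longer. That was farther from equality than in 99.3% of the 7332 genes. Its 264 reads in siCINP and 244 in siCtrl gave a log2 ratio of 0.05 (-0.21 to 0.30), while its FPKM of 3.55 and 3.95 gave -0.15, so the side of 0 depended on the length. BRCA1 was 5.75% longer in siCINP, at 6394 bases against 6046, and the length of CHEK1 differed by -4.27%, at 3221 bases against 3365.

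Among the 37 genes, 5 carried TGCAAGA or GCAAGAA on the transcript strand of the longest GENCODE 29 3' UTR (13.5%), where 2147 of 11666 compared genes did (18.4%). The 3' UTRs searched were shorter in the 37 genes, with a median of 1052 bases against 1415 in compared genes. These words share 6 letters, and TGCAAGAA holds both. They were singled out in an earlier examination of these same libraries, so the values below are a description. The 5 genes were EXO1 (-0.31), FANCF (-0.25), FANCI (-0.22), BLM (0.15) and FANCL (0.53), with a median log2 ratio of -0.22, and the other 32 had a median of -0.01. All compared genes had medians of -0.11 with a word and 0.00 without. The words TCGGAGA or CGGAGAA, singled out in the same way, were in ETAA1 (0.68) and CLSPN (0.14), 5.41% of the 37 genes and 4.22% of compared genes, whose medians were 0.08 with a word and -0.02 without. No source used here gives the sequence of either siRNA, and the part of these words in the ratios was not tested. The sites of the 5 carriers of either pair of words whose intervals excluded 0 are shown, with the words in capitals (GRCh38). They lie at chr2:67409968-67409995 (plus strand, ETAA1), chr1:35720846-35720872 (minus, CLSPN), chr2:58159661-58159687 (minus, FANCL), chr15:89317081-89317108 (plus, FANCI) and chr1:241889617-241889643 (plus, EXO1).
ETAA1: aagcactggtTCGGAGAAtggctaaagc
CLSPN: caaagagaggCGGAGAAgggctattct
FANCL: aaaaaataaaGCAAGAAatactaacat
FANCI: acctatagagTGCAAGAAtgcactctat
EXO1: agcttttgccTGCAAGAgaatctgatc

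The 55 other genes listed for the same pathways had a median log2 ratio of -0.05, with 9 of the 55 intervals above 0 and 22 below. At 1.5-fold, 0 were higher and 4 lower: CENPS, REV3L, CDC25B and RAD51B. The background of all compared genes was 18.6% above and 23.1% below 0, and 5.06% and 4.88% at 1.5-fold. RAD51B, a recombination gene named after its value was seen, had 52 reads in siCINP and 75 in siCtrl, a log2 ratio of -0.60 (-1.14 to -0.07). With total scaling the median of the 55 was 0.02, with 10 of the 55 intervals above 0 and 15 below. All compared genes with that scaling had a median of 0.06, with 26.6% of intervals above 0 and 16.7% below. CDC25B, a phosphatase that the checkpoint restrains, had 2893 reads in siCINP and 4219 in siCtrl, a log2 ratio of -0.61 (-0.68 to -0.54). Its relatives, named after their values were seen, lay on both sides of 0. CDC25A of the same list was at 0.30 (0.09 to 0.51), and CDC25C, listed with the G2 and M markers, at -0.93 (-1.20 to -0.66). REV3L, the catalytic subunit of translesion polymerase zeta, had 519 reads in siCINP and 768 in siCtrl, at -0.63 (-0.80 to -0.47). RFWD3, a ubiquitin ligase that acts on RPA, was 1.46-fold lower and not among the 4, at -0.54 (-0.64 to -0.44), and CENPS, a histone-fold partner of FANCM, at -0.78 (-1.14 to -0.42), both with fractional counts. Its dimer partner CENPX, named after its value was seen, was at -0.54 (-0.74 to -0.34). Among genes higher in siCINP, those named first here are ranked by the interval end nearest 0, not by log2 ratio. They include UIMC1 with 460 reads in siCINP and 309 in siCtrl, at 0.51 (0.29 to 0.72) with fractional counts. They also include ABRAXAS1 with 315 and 228, at 0.40 (0.15 to 0.65). With BABAM2, at 0.29 (0.12 to 0.46), UIMC1 and ABRAXAS1 encode subunits of the BRCA1-A complex. Its other subunits, named after their values were seen, were BABAM1 at 0.05 (-0.09 to 0.19) and BRCC3 at -0.20 (-0.37 to -0.02, fractional counts). TP53BP1, which limits resection, was at 0.25 (0.15 to 0.35). By log2 ratio, RAD52 at 0.48 (0.11 to 0.85) and SFR1 at 0.42 (0.05 to 0.79) lay above ABRAXAS1, both with fractional counts. MUS81, at 0.33 (0.10 to 0.56), lay above BABAM2. RAD52, SFR1 and MUS81 were named after their values were seen.

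Cell cycle genes were set beside these values. The 46 replication origin and fork genes had a median of -0.01, with 9 intervals above 0 (19.6%) and 12 below (26.1%), against 18.6% and 23.1% of all compared genes. The flap endonuclease FEN1 was at -0.73 (-0.86 to -0.61) and the helicase subunit MCM5 at -0.41 (-0.50 to -0.31), while the clamp loader subunits RFC2 and RFC1 were at 0.41 (0.23 to 0.60, fractional counts) and 0.30 (0.19 to 0.41). The 36 S phase markers, none of them among the 37 genes, had a median of -0.03, with 10 intervals above 0 (27.8%) and 15 below (41.7%). Of these markers, 15 were also in the replication list, and RPA2 and USP1 were also among the other pathway genes. The 54 G2 and M markers had a median of -0.30, with 1 interval above 0 (1.85%) and 44 below (81.5%). With total scaling the medians were 0.07, 0.05 and -0.22 for these 3 lists and 0.06 for the 37 genes described here. The part of cell cycle phase in the ratios of the checkpoint, Fanconi and recombination genes, whose median was that of all compared genes, was not tested.

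**Figure D4:**
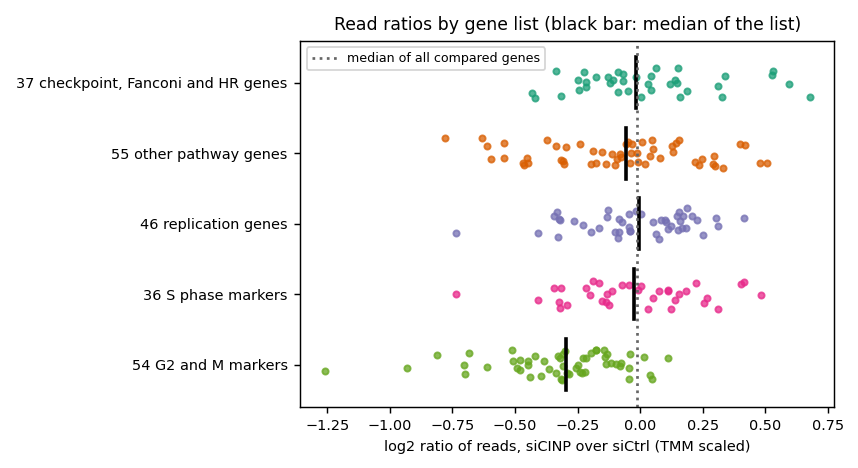
Log2 ratio of reads, siCINP over siCtrl, for each gene of 5 lists, with the list median as a black bar and the median of all compared genes as a dotted line. The 37 checkpoint, Fanconi and recombination genes (median -0.01) spread to both sides of 0, and the 54 G2 and M markers (median -0.30) lie mostly to the left.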

How the data were processed

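Each library has 1 deposited table, which gives transcripts, length, expected count and FPKM of every gene with reads, per the file headers. Expected counts, as deposited, are the authors' estimated reads without normalisation, and deposited FPKM values are scaled for length and depth. Bowtie2, HISAT and hg19 are named in the submitters' processing notes; no source used here gives the counting tool, the annotation or a strand setting. Symbols came from RefSeq (GRCh38.p14) for 18971 of 19052 gene identifiers.

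Expected counts were rounded and scaled by TMM (edgeR 4.0.16, R 4.3.3). The log2 ratio of siCINP over siCtrl has a 95% interval (Clopper-Pearson, exact) for how its reads divide between the libraries (scipy 1.17.1), and the read ratio of 2 genes has an exact conditional odds ratio interval. Both cover counting error only and compare libraries, not conditions. Genes with 20 or more reads in 1 library were compared. Counts not whole within 0.005 in either library, found in 15 of the 37 genes, are called fractional. Named outside the 37 were CINP, KLF5, the 4 other pathway genes in each direction whose interval end lay farthest from 0, and 2 replication genes likewise; KLF5 had 4077 reads in siCINP and 4013 in siCtrl. The method was tested on simulated data that held counting error only, so that test says nothing of the spread between cultures. The 37 genes and all lists were chosen with earlier results of these data known. One gene of the other lists is not reported here and was left out of them.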

Additional observations from a re-analysis of the deposited data

How the results depend on the processing

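No paired analysis was possible because each group had 1 library. Alternatives were scaling to total reads, by the upper quartile or by DESeq2 1.42.0 size factors, the deposited FPKM with pseudocounts of 0.1 and 1, other minimums of reads, whole counts only and other size rules. The CINP log2 ratio and all 185 alternative values of the 37 genes stayed inside their counting intervals. The scalings could not have moved a value out, because each shifted all genes alike and by at most 0.08. Even the narrowest interval of the 37, that of FANCI (-0.31 to -0.12), was too wide for that. As given above, the intervals of CHEK1 and RAD51AP1 did come to hold 0 with other scalings. The count of genes at least 1.5-fold higher, 2 with the main settings, was 4 with total scaling, 0 with a 2-fold rule and 9 with no minimum of fold. The count of lower genes, 0 with the main settings, was 9 with no minimum of fold and 0 otherwise. The median of all compared genes shifted by 0.08 with total scaling. TIPIN lay just past 1.5-fold (fold 1.51). Depth limits ATRIP, FANCB and FANCF, each with 131 reads or fewer.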
